A study of Macaca fascicularis and Macaca mulatta and Papio anubis with 20 samples.

Results

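PVALB, CALB2, VSNL1 and PCP4 encode 4 small neuronal proteins of calcium signalling, and their transcripts were measured in spatial sections of non-human primate dorsal root ganglia, where the cell bodies of sensory neurons lie. The members were taken by symbol, and all 4 were found among the 22000 features counted in *Macaca fascicularis*. In the sections labelled *Macaca mulatta* 3 members were matched, since VSNL1 was not analysed there, and in those labelled *Papio anubis* all 4 were. The series held 20 fresh-frozen sections, 16 of them *M. fascicularis*, on Visium slides, which carry barcoded capture spots and tag every captured transcript with a unique molecular identifier (UMI), so that copies made by amplification are counted once. A spot can hold several cells, so a value per spot belongs to a small region and not to a cell.

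In *M. fascicularis* the titles carry 4 codes with 4 sections each, namely a female and a male of batch 1 and a female and a male of batch 2. Each code was treated as 1 specimen, which the labels do not state outright. The labels give no treatment, genotype or age, and all groups share fresh freezing, sections of 10 µm and a permeabilization of 12 min. The 2 sections labelled *M. mulatta* and the 2 labelled *P. anubis* were in batch 2 and had no stated sex. Their files carry gene identifiers of the other of these 2 species, so the labels may be crossed, and the text speaks of labelled species.

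Parvalbumin (PVALB) and calretinin (CALB2) are EF-hand proteins that bind calcium in the cytoplasm and buffer its rise during activity. Visinin-like 1 (VSNL1) is a neuronal calcium sensor that moves to membranes when it binds calcium. PCP4, also called PEP-19, has an IQ motif through which it binds calmodulin and alters how calmodulin takes up and releases calcium. In sensory ganglia PVALB is known as a marker of proprioceptive neurons, which are large and myelinated.

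Each *M. fascicularis* section yielded between 1136433 and 7073134 UMIs under tissue, and median UMIs per tissue spot lay between 398 and 5145 over the 15 sections with spots. Section 3 of the batch 2 male entered through its table of summed counts alone, so its spots were not analysed here. Pan-neuronal genes marked the tissue as labelled: 8 measured genes of a neuron list summed to between 10086 and 15196 CPM, the usual scaling of a feature's UMIs to the total of its section, in every *M. fascicularis* section, and none of them was at 0. In the sections under the other labels 10 genes of the list were measured, a set that differs from these 8, and up to 3 of them were at 0 in the sections labelled *M. mulatta*. In these bulk sums over a section, fewer cells of a type and less RNA per cell cannot be told apart.

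PVALB varied among sections of the same specimen, more widely in batch 1 than in the batch 2 male. Its level in sections 1 to 4 was 130.5, 306, 472 and 401 CPM in the batch 1 female. It was 204, 309, 415 and 752 CPM in the batch 1 male. In the batch 2 female it was 408, 408, 736 and 383 CPM, and section 3 stood above the other 3. In the batch 2 male it was 188, 298, 179.7 and 221 CPM. The female of batch 2 lay above the male of batch 2 in every section, and the other groups overlapped. The means were 327 ± 148, 419.9 ± 238, 484 ± 168 and 222 ± 54.2 CPM (SD, n = 4 sections each).

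CALB2, the second buffer, was measured on few UMIs, between 36 and 477 per section. The batch 1 female held 30.4, 36.7, 52.0 and 38.6 CPM of CALB2. The batch 1 male held 19.9, 60.5, 35.5 and 67.4 CPM, the widest spread of the 4. The batch 2 female held 53.2, 77.9, 95.6 and 54.9 CPM, and the batch 2 male 19.6, 32.0, 19.7 and 31.7 CPM. The female of batch 2 lay above the male of batch 2 and, narrowly, above the female of batch 1 in all sections. The means were 39.5 ± 9.09 and 45.8 ± 22.1 CPM in batch 1 and 70.4 ± 20.2 and 25.8 ± 7.05 CPM in batch 2 (female first, SD, n = 4 sections each).

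VSNL1, the calcium sensor, was at 288, 461, 468 and 337 CPM in the batch 1 female. It was at 274, 394, 323 and 524 CPM in the batch 1 male and at 342, 486, 533 and 383 CPM in the batch 2 female. The batch 2 male held 195, 205, 161 and 271 CPM, below each of the 12 other sections. In the same 4 sections the adipocyte list had its highest sums, 4053 to 6018 CPM against at most 2899 CPM elsewhere, and its part in the VSNL1 level was not tested. The group means were 389 ± 90.1, 379 ± 108, 436 ± 88.7 and 208 ± 46.1 CPM in this order (SD, n = 4 sections each).

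PCP4, the calmodulin regulator, stood apart in the batch 2 female. That specimen held 750.0, 1041, 1247 and 907 CPM, above each of the 12 other sections. The neuron list was also highest in these 4 sections, at 13353 to 15196 CPM against at most 13022 CPM in the others, and its part in the PCP4 level was not tested. The batch 1 female held 342, 561, 336 and 225 CPM, and the batch 1 male 489, 322, 411 and 485 CPM. The batch 2 male held 524, 443, 458 and 741 CPM, of which the lowest 3 lay within the range of batch 1. The group means were 366 ± 141 and 427 ± 78.8 CPM in batch 1 and 986 ± 211 and 541 ± 138 CPM in batch 2 (female first, SD, n = 4 sections each).

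**Figure D1:**
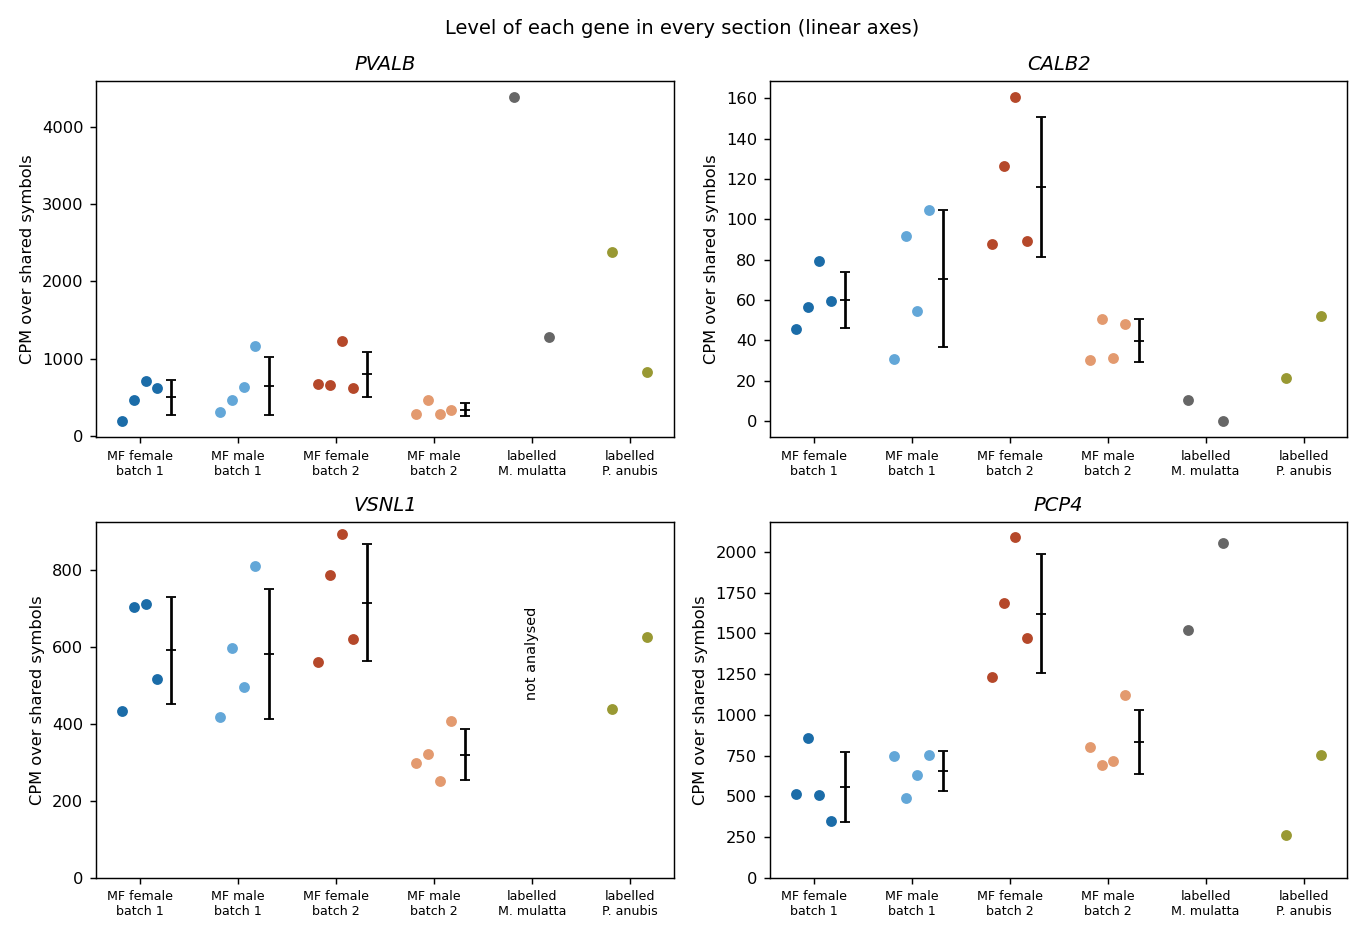
Level of PVALB, CALB2, VSNL1 and PCP4 in every section, on linear axes in CPM over the symbols shared by the 3 annotations; points are sections, and the bars beside the *M. fascicularis* (MF) specimens are the mean ± SD of 4 sections. PCP4 is highest among the MF specimens in all 4 sections of the batch 2 female, VSNL1 is lowest in the batch 2 male, and PVALB reaches 4384 CPM in a section labelled *M. mulatta*. That section was shallow, with a median of 62 UMIs per tissue spot.

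Whether the members differed between batches or sexes was tested on sums over the 4 specimens, with batch and sex in the model. PCP4 was 0.96 log2 units higher in batch 2 (SE 0.34), but its adjusted p was 0.18 by edgeR (quasi-likelihood, Benjamini-Hochberg over all features). VSNL1 differed by -0.37 (SE 0.32, adjusted p = 0.59), PVALB by -0.29 (SE 0.37, adjusted p = 0.73) and CALB2 by -0.04 (SE 0.42, adjusted p = 0.97). Thus 0 of 4 members passed, where 2.88% of the 12650 tested features did. PCP4 passed when genes with low counts were kept (adjusted p = 0.0116) and when the sections, which share a specimen, were taken as the samples (adjusted p = 0.00210).

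Marker lists of other cell types were set side by side between the batches, with no test. The sum over 9 myelinating Schwann cell genes ranged from 3316 to 9222 CPM in batch 1 and from 1945 to 4092 CPM in batch 2. Over 8 immune genes it ranged from 1713 to 2296 CPM in batch 1 and from 450.1 to 1199 CPM in batch 2. Over 9 adipocyte genes it ranged from 1097 to 1643 CPM in batch 1 and from 2386 to 6018 CPM in batch 2, with 1 to 4 of those genes at 0 in a section. Fibroblast genes were at 1748 to 5059 against 1003 to 2904 CPM, satellite glia genes at 3768 to 7077 against 4228 to 5422 CPM and endothelial genes at 200.1 to 362 against 217 to 433 CPM. The immune and adipocyte ranges did not overlap between batches, whereas those of Schwann cell, fibroblast, satellite glia and endothelial genes did. Their part in the PCP4 difference was not tested. In the *M. fascicularis* sections with a stated version, the Space Ranger version went with the batch as well, and the 2 cannot be told apart there. The sections under the other labels, also of batch 2, had version 2.0.0.

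All 4 members had a higher estimate in females than in males, though in batch 1 only VSNL1 lay higher in the female. The log2 difference was 0.71 for CALB2 (SE 0.42), 0.66 for VSNL1 (SE 0.32), 0.48 for PVALB (SE 0.37) and 0.43 for PCP4 (SE 0.34). The adjusted p of each was 0.998 by edgeR. Summed per specimen, PVALB, CALB2 and PCP4 were at 379, 42.8 and 368 CPM in the batch 1 female. The batch 1 male held more of each, 472, 50.6 and 430 CPM, while VSNL1 was at 418 CPM in that female against 405. In batch 2 the female was higher for each member, at 472 against 216 CPM for PVALB and 70.0 against 24.1 for CALB2. VSNL1 was there at 436 against 199 CPM and PCP4 at 985 against 519. Over all features 0% were called between the sexes by edgeR and 0 by DESeq2, with 169 and 179 at an unadjusted p under 0.05, in a comparison of 2 specimens against 2.

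Within a section the members' UMIs were concentrated in few spots. The 5% of spots richest in PVALB held a median of 63.3% of its UMIs over the 15 sections (range 48.8 to 76.2%), while the same spots held 16.4% of all UMIs. For CALB2 the share was 79.5% (range 64.2 to 100%), for VSNL1 50.2% and for PCP4 59.3%. Spots were ranked by the gene itself, and no share was computed for a gene with as few UMIs. Where fewer than 5% of spots held CALB2, its share was fixed at 100%. One such section was section 1 of the batch 1 female, with CALB2 in 26 of 731 spots. The richest single spot held up to 242 UMIs of PCP4, against up to 93 of PVALB, 64 of VSNL1 and 15 of CALB2.

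**Figure D2:**
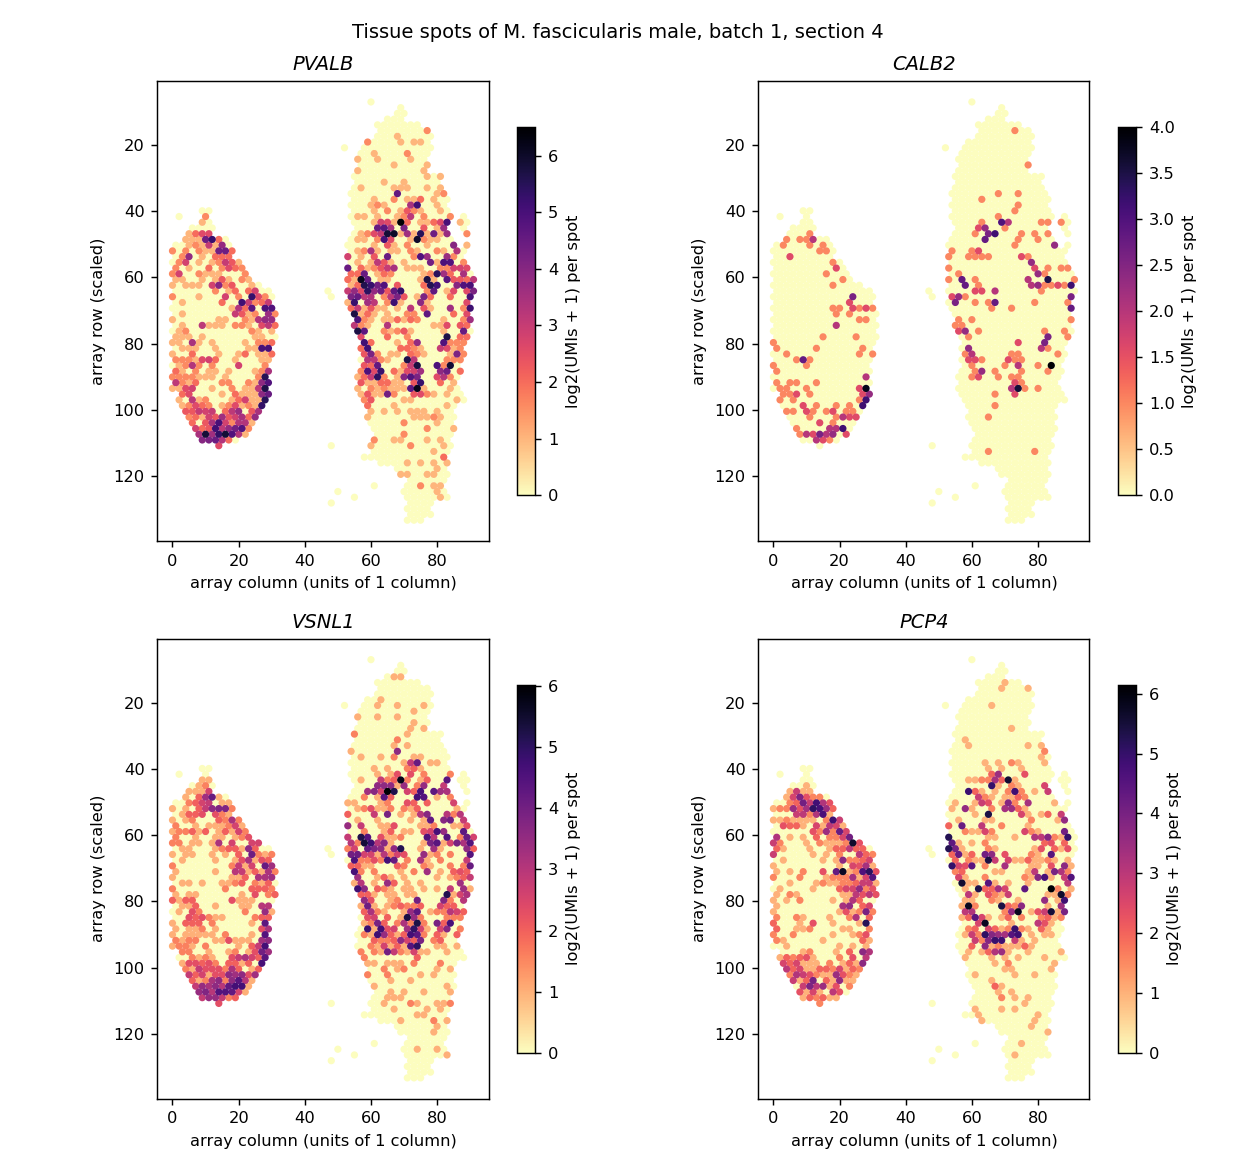
UMIs of each member per tissue spot, as log2(UMIs + 1), at the positions of the capture array in section 4 of the *M. fascicularis* male of batch 1, which has 1458 tissue spots; each panel has its own colour scale. Spots with many UMIs of PVALB, CALB2 and VSNL1 lie in the same patches, largely along the outer margin, and PCP4 is high in the same zone though often in other spots of it.

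Moran's I, which is above 0 where adjoining spots hold similar levels, described the same clustering in the authors' deposited table. For PVALB it ranged from 0.0207 to 0.238 over the 16 sections, with a median of 0.0897. The medians were 0.101 for PCP4, 0.0780 for VSNL1 and 0.0367 for CALB2, and these are the authors' scores. In the authors' deposited table the adjusted p of PCP4 was under 0.05 in 16 of 16 sections, that of PVALB and VSNL1 in 14 and that of CALB2 in 13, where 16.2% of all gene entries of these tables did. The sections in which PVALB and VSNL1 missed it in the authors' deposited table were sections 3 and 4 of the batch 2 male, where they had 364 and 251 UMIs of PVALB. Recomputed from the matrices over directly adjoining spots, the medians were higher, at 0.178 for PVALB, 0.0890 for CALB2, 0.204 for VSNL1 and 0.197 for PCP4. They cover 15 sections, without section 3 of the batch 2 male, which the authors' medians include.

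By specimen, the authors' deposited scores of VSNL1 averaged 0.148 in both specimens of batch 1, 0.0790 in the female and 0.0362 in the male of batch 2. For PVALB the mean in the authors' deposited table was 0.144 and 0.142 in batch 1 and 0.0705 and 0.0526 in batch 2, female first. For PCP4 the authors' deposited scores averaged 0.132, 0.121, 0.0974 and 0.0606 in the same order. These are group means with no test, and UMI totals, whose part in the scores was not tested, were as low as 1136433 in a section of the batch 2 male.

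To set the members against cell types, spots with at least 200 UMIs were ranked within each section by a marker list, and the top 25% were compared with the other spots, summed per specimen. The neuron list held pan-neuronal genes without the members and without neurofilaments. Its UMIs were 33.2% THY1, 29.7% TUBB3, 22.4% STMN2 and 11.6% SNAP25. The 4648 neuron-list spots of 18594 had a median list share of 1.54% of UMIs against 1.00% in the other spots, so the 2 sets of spots differed by degree. They were also deeper, with a median of the section medians of 5410 UMIs against 1157.

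PCP4 was the one member called higher in neuron-list spots. It was at 379 against 359 CPM in the batch 1 female, 515 against 348 in the batch 1 male, 1283 against 647 in the batch 2 female and 585 against 521 in the batch 2 male. The log2 difference was 0.49 (SE 0.11, adjusted p = 0.00161 by edgeR). The SE and p of these fits rest on a spread that edgeR shares over all features, and here the 4 specimens' own log2 differences of PCP4 had a wider spread (mean 0.45, SD 0.42). VSNL1 differed by 0.10 (SE 0.07, adjusted p = 0.32), PVALB by -0.19 (SE 0.10, adjusted p = 0.14) and CALB2 by -0.10 (SE 0.12, adjusted p = 0.56). The count of 1 of 4 members stood beside 13.9% of 12125 features called higher and 18.7% called lower.

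The choice of neuronal genes turned these values. With the neurofilaments NEFL and NEFH and the peripherin gene PRPH added to the list, all 4 members were higher in its spots, where 20.6% of features were. The log2 difference was 1.96 for CALB2 (SE 0.12), 1.70 for PVALB (SE 0.09), 1.63 for VSNL1 (SE 0.09) and 1.24 for PCP4 (SE 0.11), each with an adjusted p of at most 1.97e-07 by edgeR. PVALB was then at 633 ± 183 CPM against 204 ± 48.4 CPM (SD, n = 4 specimens), and CALB2 at 79.0 ± 30.6 against 22.5 ± 5.87 CPM. The PCP4 call on the list without neurofilaments was lost under DESeq2 (adjusted p = 0.0719).

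The PVALB difference was not the same in both batches. Between neuron-list and other spots its log2 difference was -0.01 and 0.12 in the female and male of batch 1, while the female and male of batch 2 had -0.57 and -0.49. The interaction was -0.62 (SE 0.11, adjusted p = 0.0327 by edgeR), in a fit where 0.239% of features were called. CALB2 had an interaction of -0.67 (SE 0.19, adjusted p = 0.20), VSNL1 of -0.29 (SE 0.10, adjusted p = 0.29) and PCP4 of 0.25 (SE 0.21, adjusted p = 0.67). With any 1 specimen left out, the PVALB estimate lay between -0.55 and -0.70. Its call was lost when spots were ranked by share (adjusted p = 0.112), with the top 10% of spots (0.0738), with the neurofilament list (0.412) and without the female (0.0540) or the male (0.364) of batch 1.

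Members were lower in spots ranked by lists of other cell types. In spots of the myelinating Schwann cell list, where 12.3% of features were called lower, PVALB was at 157 ± 32.9 CPM against 410.1 ± 119 CPM (SD, n = 4 specimens), a log2 difference of -1.37 (SE 0.13, adjusted p = 2.05e-05 by edgeR). PCP4 differed there by -1.25, VSNL1 by -1.16 and CALB2 by -1.08, and all 4 were called and were lower in 4 of 4 specimens. These spots were shallower, with a median of the section medians of 766 UMIs against 1867. In spots of the fibroblast list all 4 were called lower, by between -0.62 for CALB2 and -1.06 for PCP4, where 15.5% of features were called lower. PVALB and PCP4 were lower there in 4 of 4 specimens, and VSNL1 and CALB2 in 3 of 4.

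In spots of the immune list all 4 members were called lower too, where 6.35% of features were. The log2 differences were -0.39 for PCP4, -0.52 for PVALB, -0.54 for VSNL1 and -0.74 for CALB2. VSNL1 was lower in 4 of 4 specimens, and PCP4, PVALB and CALB2 in 3 of 4. The PVALB call was lost under DESeq2 (adjusted p = 0.223). In spots of the satellite glia list, which marks the glia that wrap neuron cell bodies, PVALB fell by 0.39, VSNL1 by 0.41 and CALB2 by 0.45 on the log2 scale, where 4.29% of features fell; the CALB2 call was lost with the top 10% of spots (adjusted p = 0.324). PCP4 differed there by -0.16 (adjusted p = 0.12). In spots of the smooth muscle list PVALB fell by 0.34 and VSNL1 by 0.37, in 4 of 4 specimens, and PCP4 by 0.66, in 3 of 4. There 6.29% of features fell, and CALB2 differed by -0.18 (adjusted p = 0.24). Those 3 calls were lost without the female of batch 1, without the female of batch 2 or without the male of batch 1, and the fibroblast call of CALB2 under DESeq2 (adjusted p = 0.0652), without the female of batch 2 (0.0632) and without the male of batch 1 (0.231).

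**Figure D3:**
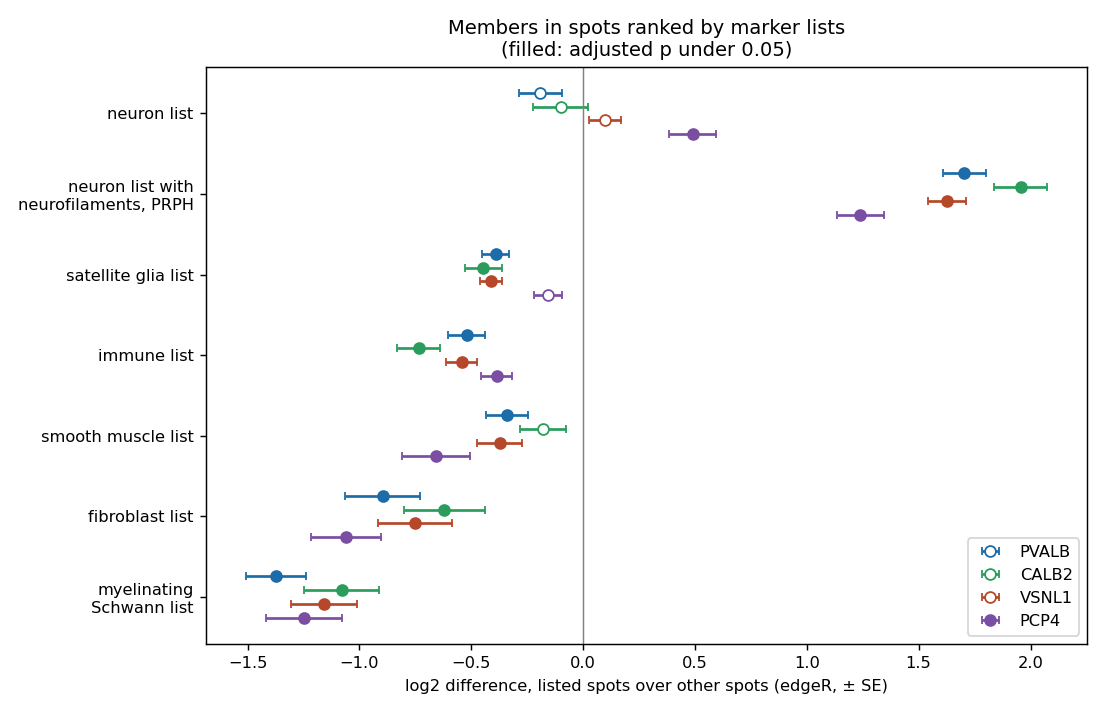
Log2 difference of each member between spots ranked in the top 25% by a marker list and the other spots, from edgeR fits on sums over 4 specimens; points are estimates, bars ± SE, and filled points have an adjusted p under 0.05. Differences are near 0 for the neuron list except PCP4 at 0.49, between 1.24 and 1.96 with neurofilaments and PRPH in the list, and below 0 for every other list.

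Other genes of calcium binding and calmodulin signalling moved in both directions in the neuron-list spots. Of 6 tested buffers and S100 proteins other than the members, 2 were higher and 3 lower, beside the shares of all features given above, with a median log2 difference of 0.06 against -0.01 over all features. CALB1, the buffer calbindin, was higher at 15.1 ± 4.89 against 12.2 ± 2.71 CPM (SD, n = 4 specimens, log2 difference 0.36, adjusted p = 0.0298 by edgeR). S100A10, the S100 protein that partners annexin A2, was higher by 0.33. The S100 proteins S100A4 (-0.90), S100A1 (-0.29) and S100A16 (-0.20) were lower.

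Of 11 tested calcium sensors other than VSNL1, and without SYT1, which is in the neuron list, 4 were higher and 0 lower. Over all features 13.9% were called higher and 18.7% lower. HPCA (hippocalcin) was higher by 0.77 log2 units at a low level, 2.71 ± 0.97 against 1.65 ± 0.88 CPM (SD, n = 4 specimens, adjusted p = 0.0493 by edgeR). KCNIP2, a partner of voltage-gated potassium channels, was higher by 0.35. Of 14 tested calmodulin genes and regulators other than PCP4, 5 were higher and 1 lower, beside the same shares of all features. Of the calcineurin subunits PPP3R1 was higher by 0.59 and PPP3CB by 0.20, while PPP3CA was lower by -0.45. The kinase gene CAMKK1 was higher by 0.53 and GAP43, a growth cone protein that binds calmodulin, by 0.44.

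Which genes went with each member was then examined inside the neuron-list spots, by comparing spots with at least 1 UMI of the member with spots free of it. The member itself was left out of each fit. Spots with a member were deeper than spots without it. The median of the section medians was 7529 against 3274 UMIs for PVALB and 8687 against 4664 for CALB2. It was 7921 against 2199 UMIs for VSNL1 and 7594 against 1922 for PCP4. Each comparison was therefore repeated with every spot thinned to 500 UMIs. The 4 comparisons use the same spots and are not independent of one another.

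In PVALB-positive spots CALB2 and VSNL1 were higher, where 6.73% of 10387 features were higher and 5.34% lower. CALB2 was at 52.9, 78.1, 72.1 and 41.7 CPM in the 2 specimens of batch 1 and the 2 of batch 2, female first, against 9.39, 14.6, 24.2 and 13.8 CPM in PVALB-free spots. Each of the 4 positive values lay above all 4 free values. The log2 difference was 2.04 (SE 0.13, adjusted p = 1.20e-12 by edgeR), and the call held after thinning (adjusted p = 3.17e-07). VSNL1 was at 464 ± 113 against 221 ± 39.8 CPM (SD, n = 4 specimens), a log2 difference of 1.11 (SE 0.06, adjusted p = 1.72e-14), and 1.00 after thinning. PCP4 differed by 0.14 (SE 0.06, adjusted p = 0.13), higher in 2 of 4 specimens.

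In the same spots 6 of 12 tested genes of a large-fibre neuron list were higher and 0 lower. Among them were RUNX3 (1.46) and ETV1 (0.73), transcription factors of proprioceptive neurons, the neurofilaments NEFH (0.79) and NEFL (0.69), and osteopontin SPP1 (0.75). Of 17 tested nociceptor genes 0 were higher and 12 lower, among them the itch receptor gene MRGPRX1 (-0.69), the sodium channel gene SCN11A (-0.53), the nicotinic receptor subunit CHRNA3 (-0.52) and the neuropeptide gene CALCA (-0.45). The median log2 difference was 0.53 over the large-fibre genes and -0.32 over the nociceptor genes, against -0.02 over all features. After thinning, 3 of 8 large-fibre genes were higher and 1 lower, and 5 of 10 nociceptor genes were lower.

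In CALB2-positive spots PVALB and VSNL1 were higher, where 9.59% of 10363 features were higher and 7.29% lower. PVALB was at 744 against 261 CPM in the batch 1 female, 1117 against 259 in the batch 1 male, 684 against 260.0 in the batch 2 female and 545 against 151 in the batch 2 male. The positive values did not overlap the free ones, and the log2 difference was 1.73 (SE 0.05), called by edgeR. The specimens' own log2 differences of PVALB averaged 1.71 (SD 0.32, n = 4), a spread wider than that SE allows. VSNL1 was at 654 ± 169 against 292 ± 71.5 CPM (SD, n = 4 specimens), a log2 difference of 1.20 (SE 0.05). PCP4 differed by 0.04 (SE 0.05, adjusted p = 0.67). After thinning, PVALB stayed called at 1.33 (adjusted p = 0.0259), VSNL1 was at 0.56 (adjusted p = 0.47) and PCP4 at -0.45 (adjusted p = 0.62).

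Of 13 large-fibre genes tested for CALB2, 7 were higher and 2 lower. ETV1 was higher by 1.31, SPP1 by 0.88, NEFH by 0.80 and NEFL by 0.70. ASIC1, an acid-sensing channel gene, was higher by 1.68 at a low level, 4.18 ± 1.76 against 1.31 ± 0.83 CPM (SD, n = 4 specimens). RUNX3 was higher by 1.26, in 3 of 4 specimens, at 17.0 ± 12.8 against 8.59 ± 1.91 CPM. The receptor gene RET (-0.18) was among the lower genes. Of 18 nociceptor genes 14 were lower, with the irritant channel gene TRPA1 (-1.08), CHRNA3 (-0.63) and SCN11A (-0.62) among them. The medians were 0.54 and -0.54, against -0.01 over all features, and after thinning, with 92 CALB2-positive spots, 0 of 7 and 0 of 10 genes were called. The thinned medians were -0.12 with 3 of 7 large-fibre genes above 0, so that the direction of that median turned, and -1.12 with 1 of 10 nociceptor genes above 0.

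VSNL1-positive spots had higher levels of the 3 other members, where 9.67% of 9697 features were higher and 7.98% lower. CALB2 was higher by 1.84 (SE 0.16), PVALB by 1.74 (SE 0.10) and PCP4 by 1.31 log2 units (SE 0.06), each in 4 of 4 specimens and with an adjusted p of at most 8.87e-11 by edgeR. PCP4 was at 411 against 189 CPM in the batch 1 female, 574 against 263 in the batch 1 male, 1473 against 524 in the batch 2 female and 853 against 351 in the batch 2 male. The rise of PCP4 was therefore present in each specimen. After thinning the differences were 0.98 for PVALB (adjusted p = 4.34e-10), 0.57 for PCP4 (adjusted p = 0.000127) and 1.10 for CALB2 (adjusted p = 0.0901).

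With VSNL1, 8 of 10 large-fibre genes were higher and 0 lower, led by NEFH (1.26), RUNX3 (1.17), NEFL (1.01) and SPP1 (0.95). Of 17 nociceptor genes 12 were lower, led by MRGPRX1 (-0.85), GFRA3 (-0.75), TRPV1 (-0.70), the heat and capsaicin channel, and TAC1 (-0.69), which encodes substance P. The medians were 0.58 and -0.51, against -0.02 over all features. After thinning, 3 of 8 large-fibre genes were higher and 4 of 10 nociceptor genes lower.

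PCP4-positive spots differed from this. CALB2 was at 29.7 against 69.8 CPM in the batch 1 female, 54.8 against 66.8 in the batch 1 male, 55.7 against 78.3 in the batch 2 female and 22.6 against 24.1 in the batch 2 male. It was thus lower in 4 of 4 specimens, by little in the last, with a log2 difference of -0.59 (SE 0.11, adjusted p = 0.000488 by edgeR). PVALB differed by -0.27 (SE 0.07, adjusted p = 0.00631) and was lower in 3 of 4 specimens, and VSNL1 by 0.22 (SE 0.06, adjusted p = 0.0338). In the batch 2 male PVALB was at 189 against 167 CPM, the one specimen with a rise. These calls stood beside 2.78% of 9985 features called higher and 2.76% called lower. After thinning none of the 3 was called, and CALB2 was at 0.27 (adjusted p = 0.96). The PVALB and CALB2 calls were also lost without the female of batch 1 (adjusted p = 0.116 and 0.0762), and the VSNL1 call without any 1 of the other 3 specimens (0.337, 0.0631 and 0.0874). Under DESeq2 the CALB2 call held, while PVALB (0.0957) and VSNL1 (0.120) missed the threshold, and over all tissue spots PVALB was at 0.06.

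Both neuron lists were examined in the PCP4-positive spots as well. Of 11 large-fibre genes 4 were higher and 1 lower, with NEFH higher by 0.51, PIEZO2, the mechanically gated channel, by 0.37 and NEFL by 0.31, and ETV1 lower by -0.52. Of 17 nociceptor genes 1 was higher and 5 were lower, with MRGPRX1 (-0.67), CHRNA3 (-0.49) and SCN11A (-0.36) among them. The medians were -0.07 and -0.22, against -0.01 over all features. After thinning, 3 of 8 large-fibre genes were higher and 0 lower, and of 12 nociceptor genes 0 were higher and 1 was lower. The buffer CALB1 was higher in PCP4-positive spots by 1.35 (SE 0.20, adjusted p = 7.12e-06) and in VSNL1-positive spots by 0.87, and it was not called in PVALB- or CALB2-positive spots. Whether these differ between members was not tested.

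**Figure D4:**
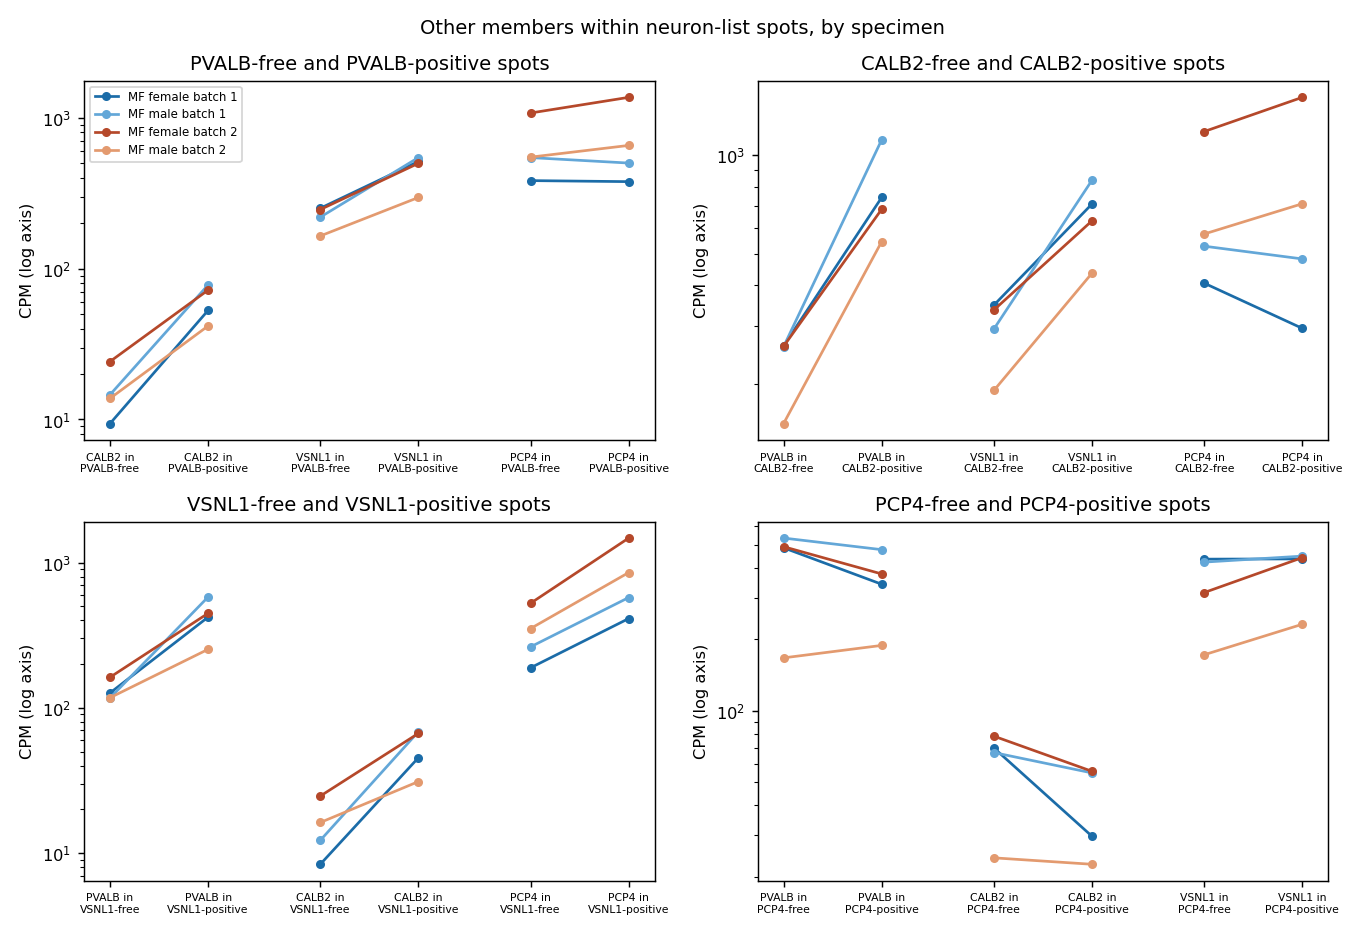
Level of each other member, in CPM on a log axis, in neuron-list spots free of a member and in those with at least 1 UMI of it; points are the 4 *M. fascicularis* specimens and lines join the 2 values of a specimen. Lines rise in all specimens between PVALB, CALB2 and VSNL1 and from VSNL1-free to VSNL1-positive spots for PCP4, whereas PCP4 splits by specimen in PVALB- and CALB2-positive spots and CALB2 falls in PCP4-positive spots.

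Spot-level overlap was described with 14724 spots thinned to 500 UMIs each. At this depth PVALB was found in 12.6% of spots, VSNL1 in 12.7%, PCP4 in 15.5% and CALB2 in 1.89%. In spots of the myelinating Schwann cell list at the same depth the shares were 6.97, 7.53, 9.67 and 1.06%, lower for each member. CALB2 was found there in 32 of 3029 spots. In neuron-list spots at this depth the shares were 14.3, 15.6, 21.8 and 2.16%, above those of all thinned spots. For PVALB and CALB2 the summed counts of neuron-list spots had gone the other way, by -0.19 and -0.10, with neither called. Spots off the tissue held a median of 3.13% as many PVALB UMIs per spot as tissue spots, and between 1.83% and 3.01% for the other members, beside 2.68% of all UMIs.

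PVALB with CALB2 had the highest odds ratio of the 6 pairs at this depth, 3.50 pooled over the 15 sections, and 98 spots held both against 39.5 expected from their shares. These were 5.27% of PVALB-positive and 35.1% of CALB2-positive spots. By specimen it was 4.03 in the female and 3.48 in the male of batch 1, and 3.22 in the female and 3.92 in the male of batch 2.

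The ratio was 2.63 for CALB2 with VSNL1, ranging over the specimens from 1.45 to 4.12, and 2.03 for PVALB with VSNL1, ranging from 1.63 to 2.33. VSNL1 and PCP4 had a ratio of 1.56, between 1.45 and 1.70. PVALB and PCP4 had 1.13, between 1.05 and 1.31, but 0.865 with spots thinned to 1000 UMIs, on the other side of 1. CALB2 and PCP4 had 0.968. In the last pair the batch 2 male, with 1 shared spot against 5.80 expected, had 0.148 and the other 3 specimens lay between 0.823 and 1.27. Without thinning, all 6 ratios were between 3.56 and 8.87, in spots that differ in depth, and CALB2 with VSNL1 was then the highest, above 7.76 for PVALB with CALB2.

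Of the thinned spots 65.6% held no member, 26.9% held 1, 6.62% held 2, and 5 spots held all 4. Adjoining thinned spots were counted as pairs that start at a positive spot, so a spot can enter repeatedly. The other spot held the same member in 18.9% of pairs for PVALB, 22.2% for PCP4, 16.7% for VSNL1 and 3.46% for CALB2. Sections with more positive spots give more pairs, and the shares are of pairs, not of spots. Neighbouring spots share the tissue around them, and these shares are given as a description.

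**Figure D5:**
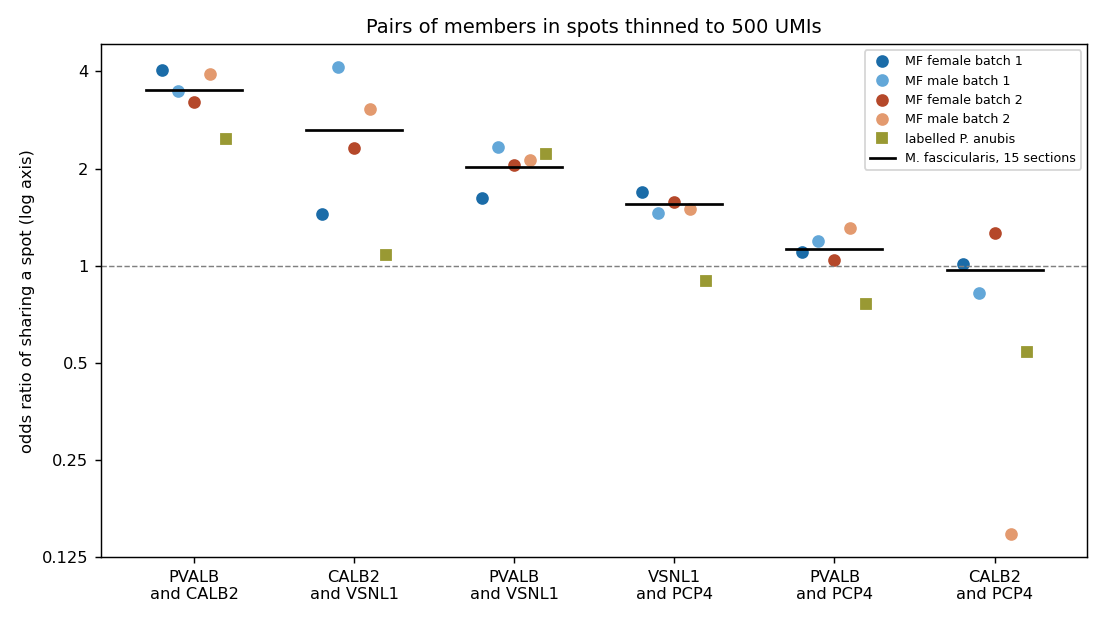
Odds ratio that 2 members share a spot, on a log axis, after thinning each spot to 500 UMIs; circles are *M. fascicularis* specimens, squares the sections labelled *P. anubis*, and black lines the value pooled over the 15 *M. fascicularis* sections. PVALB with CALB2 lies highest at 3.50, and pairs of PVALB or CALB2 with PCP4 lie near 1, except 0.148 for CALB2 with PCP4 in the batch 2 male.

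Across spots with at least 200 UMIs, the genes whose normalised level followed each member were ranked by the median Pearson correlation over 15 sections, among 6858 genes found in at least 5% of spots. All values of a section share its libraries and positions, and the correlations are a description. For PVALB the first 5 were VSNL1 (0.39, range 0.14 to 0.47), the lectin-like gene CLEC2L (0.39), SNCB, the gene of beta-synuclein (0.35), the synaptic gene SNAP25 (0.33) and the growth factor gene NRG1 (0.32). For CALB2 they were CLEC2L (0.29), PVALB (0.27), VSNL1 (0.24), NRG1 (0.24) and SNCB (0.23). For VSNL1 they were PVALB (0.39), NEFL (0.37), SNAP25 (0.37), NEFH (0.37) and CLEC2L (0.36). In section 2 labelled *P. anubis* CLEC2L was at 0.006 with PVALB, 0.033 with CALB2 and 0.029 with VSNL1. SNCB was at 0.34 with PVALB and 0.15 with CALB2 there, and NEFL at 0.37 with VSNL1.

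PCP4 had another set of followers. Among its first 5 were FABP3, a fatty acid binding protein (0.31, range 0.15 to 0.49), the F-box gene FBXO2 (0.30), a feature without a symbol, ENSMFAG00000031365 (0.30), and the tetraspanin gene TSPAN7 (0.29). Among the genes ranked for PCP4, VSNL1 was at place 74 (0.24), PVALB at place 1731 (0.11) and CALB2 at place 4790 (0.05). For PVALB, CALB2 was at place 23 (0.27) and PCP4 at place 1191.

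The labelled species were set side by side in CPM over the 13102 symbols that all 3 annotations hold, with no test, since each of the other 2 labels has 1 specimen and an annotation of its own. PVALB was at 4384 and 1278 CPM in the 2 sections labelled *M. mulatta*, against 196 to 1235 CPM in *M. fascicularis*. The first lay above that range, while the second had a counting interval of 1095 to 1484 CPM that spans its upper end. Over all features the second, at 654 CPM, lay inside the *M. fascicularis* range of 130.5 to 752 CPM. It was at 2383 and 833 CPM in those labelled *P. anubis*, of which the first lay above the range over shared symbols. These 4 sections held 426, 173, 780 and 5673 UMIs of PVALB, and the 2 sections of each label lay far apart. The sections labelled *M. mulatta* were shallow, with medians of 62 and 61 UMIs per tissue spot. In section 1 under that label the 2734 spots off the tissue held 86 PVALB UMIs, beside 426 in 2258 tissue spots. Median UMIs per tissue spot were 113 and 1668 under the label *P. anubis*.

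CALB2 had 1 and 0 UMIs in the sections labelled *M. mulatta*, and 0 of 264661 UMIs allows a level of up to 11.3 CPM over all features, counting error only. The lowest *M. fascicularis* section held 19.6 CPM on that scale. That value lies inside the counting interval of the section with 1 UMI, 0.133 to 29.3 CPM around 5.25 CPM. In the sections labelled *P. anubis* CALB2 had 7 and 354 UMIs, or 21.4 and 52.0 CPM over shared symbols, against 30.0 to 160.5 CPM in *M. fascicularis*. VSNL1 was at 439.9 and 626 CPM under that label, inside the *M. fascicularis* range of 252 to 895 CPM.

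PCP4 was at 1523 and 2054 CPM in the sections labelled *M. mulatta* and at 259.7 and 753 CPM in those labelled *P. anubis*, against 345 to 2094 CPM in *M. fascicularis*. In thinned spots labelled *P. anubis* the odds ratio was 2.22 for PVALB with VSNL1, 2.47 for PVALB with CALB2 on 5 shared spots, and 0.761 for PVALB with PCP4. Under the label *M. mulatta* only 40 spots reached 500 UMIs, and 17 of them held PVALB, 15 PCP4 and 7 both. In the authors' deposited table the Moran's I of PVALB was 0.0497 and 0.0722 under the label *M. mulatta* and 0.0471 and 0.191 under *P. anubis*, with 0.0344 and 0.134 for VSNL1 under the latter. That of PCP4 was -0.00270 and 0.0114 under *M. mulatta* (the authors' adjusted p = 0.999 and 0.737). Under *P. anubis* it was 0.0100 (0.882) and 0.149. The authors' score of CALB2 was -0.000502 in section 1 labelled *M. mulatta*, and -0.00157 and 0.0306 under *P. anubis*.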

How the data were processed

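UMI counts per gene and spot were deposited by the authors as matrices made with Space Ranger 2.0.0 (12 sections) and 2.1.0 (7 sections), per the file headers; the submitters' processing notes name the build Mmul_10. The authors also deposited, per section, a table of summed UMI counts, Moran's I (a score) and its p-values; its median-normalized signal column, per the file headers a mean count per spot, was not used. Only spots under tissue were used, apart from the background off tissue. CPM took all features as denominator. Sections of a group differed beyond sampling noise (chi-square over its degrees of freedom at least 3.93 in 24 pairs), and section numbers did not pair sections (median correlation 0.02 over 24 same-numbered pairs, 2 of 16 sections closest to their own number). The limit given for 0 counts is 3 counts and, like the depth, speaks of counting error alone.

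Sums per specimen, or per specimen and spot class with the specimen as a block, were fitted with the quasi-likelihood test of edgeR 4.0.16 (R 4.3.3; TMM, filterByExpr, Benjamini-Hochberg over all features, threshold 0.05), and DESeq2 1.42.0 was an alternative. SE is the log2 difference over the square root of F. Class means are unadjusted CPM over specimens. Odds ratios are Mantel-Haenszel estimates over sections. Spots were handled in Python 3.11.15. Thinning drew UMIs without replacement. The fits were tested on simulated data. The members and lists were chosen with earlier results of these data known. Named genes were, beside the members, the genes called in each list with the largest differences (up to 6 a direction) and the 5 most alike genes of each member; a few of these are not reported here. The alternatives left out single sections or specimens and varied filters, rankings and lists. No doublet caller was run, since a spot holds several cells, and whether title codes are separate animals is not stated, so p-values speak only of these specimens, whose spread may be technical. edgeR moderates that spread over all features, and a printed SE or p can be smaller than the spread of the specimens' own differences would give.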

Additional observations from a re-analysis of the deposited data

Results flagged for a closer look

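PVALB in section 3 of the *M. fascicularis* female of batch 2 stood at 736 CPM, while the other 3 sections of that specimen lay between 383 and 408 CPM. Its gap to the nearest of them was 0.930 of the group's range, above Dixon's critical value for 4 values. Of 32 groups of 4 tested this way, over the CPM and the authors' Moran's I, it was the only one. Chance gives about 1 in 20 groups, so 1 of 32 is no more than chance gives.

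The PVALB difference between neuron-list and other spots differed between batches, by -0.62 log2 units in batch 2 over batch 1 (adjusted p = 0.0327 by edgeR's interaction test). The estimate was -0.70 and -0.55 without the female or the male of batch 1, and -0.57 and -0.66 without those of batch 2.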

How the results depend on the processing

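Of the members' values under the alternatives, 482 kept direction and side of the threshold, 28 became calls, 37 lost the call and 23 turned direction; of the counts and descriptions, 127 stayed within their margin and 72 moved. The cause of none of these was tested, beyond fewer genes or samples tested. Between batches 364 features were called, against 1279 with no filter on low counts and 4345 with sections as samples; section numbers do not pair the sections, and with the number as a replicate block 4448 were called. Between the sexes 0 became 67, 8 and 5 under these settings. Leaving out 1 section gave 115 to 942 calls between batches and 0 to 0 between sexes; it was 674 without section 1 and 942 without section 4 of the batch 1 female, 564 without section 1 of the batch 2 female, and 115 and 120 without sections 1 and 2 of the batch 2 male.

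With all tissue spots the calls were 3585 for PVALB-, 3358 for CALB2-, 3742 for VSNL1- and 3020 for PCP4-positive spots. Under DESeq2 they were 482, 732, 742 and 158, and after thinning 113, 8, 92 and 32. At least 2 UMIs of PVALB gave 1894. DESeq2 gave 2282 calls for the neuron, 668 for the immune, 424 for the satellite glia and 1143 for the smooth muscle list. The minimum of 1000 UMIs gave 1392 for the Schwann and 1194 for the smooth muscle list, which had 3951 with each section as a replicate block, and the top 10% gave 1196 for the immune list. The batch interaction had 29 calls, 4 with neurofilaments, 14 with DESeq2, 216 with no filter, 400 with each section as a replicate block, 9 by share and 74 with the top 10%.

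Leaving out 1 specimen gave 715 to 1168 calls for PVALB-, 991 to 1593 for CALB2-, 1087 to 1555 for VSNL1- and 230 to 556 for PCP4-positive spots. For the lists it gave 2263 to 4301 (neuron), 1036 to 3429 (Schwann), 745 to 1172 (satellite glia), 1613 to 4902 (fibroblast), 510 to 4059 (smooth muscle) and 700 to 2372 (immune), and 22 to 481 for the interaction.

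Between batches the direction of PVALB turned to 0.084 with the replicate block, and without single sections it ranged from -0.42 to 0.023, turned without section 4 of the batch 1 male. That of CALB2, at -0.04, turned to 0.15 with sections as samples, 0.22 with the replicate block, and ranged from -0.14 to 0.12 without single sections, above 0 in 7 of 16. PCP4 in CALB2-positive spots turned to -0.35 with at least 2 UMIs, -0.45 after thinning and ranged from -0.16 (without the batch 2 female) to 0.19 (without the batch 1 female). In PCP4-positive spots PVALB turned to 0.062 with all tissue spots and CALB2 to 0.27 after thinning. In neuron-list spots PVALB turned to 1.70 and CALB2 to 1.96 with neurofilaments, and VSNL1 to -0.027 with at least 1000 UMIs; without 1 specimen CALB2 ranged from -0.34 (batch 1 male left out) to 0.13 (batch 2 female). PCP4 turned to 0.0046 for the satellite glia list with the top 10%, and its interaction ranged from -0.19 (batch 2 female left out) to 0.62 (batch 2 male left out).

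Recomputed Moran's I, over 15 sections, had medians of 0.178 (PVALB), 0.0890 (CALB2), 0.204 (VSNL1) and 0.197 (PCP4). Without thinning the log2 odds ratios were 2.96 (PVALB with CALB2), 2.77 (PVALB with VSNL1), 1.96 (PVALB with PCP4), 3.15 (CALB2 with VSNL1), 1.83 (CALB2 with PCP4) and 2.62 (VSNL1 with PCP4), and at 1000 UMIs 1.27, -0.21 and 0.47 for PVALB with VSNL1, PVALB with PCP4 and VSNL1 with PCP4. Leaving out 1 specimen gave 1.76 to 1.90, 0.94 to 1.11, 0.13 to 0.27, 1.11 to 1.57, -0.60 to 0.16 and 0.61 to 0.67 in the order of the 6 pairs. Depth limits CALB2 most, with as few as 36 UMIs in a section.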
